A study of Mus musculus with 19 samples.

Results

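The 43 genes described here make ribosomes. They were picked by symbol as proteins of ribosome biogenesis and of RNA polymerase I, and 42 of the 43 had a row in the deposited table of 29861 rows. Noc2l, a large subunit assembly factor, was not analysed here. RNA had been sequenced from 19 organoid lines, which are cultures of pancreatic duct cells that grow as hollow spheres in Matrigel. The 6 tumor lines came from ductal adenocarcinomas of mice in which Pdx1-Cre, a recombinase driven by a promoter active in the developing pancreas, switched on a Trp53 R172H allele. The 6 PanIN lines are named for pancreatic intraepithelial neoplasia, a precursor lesion, which the pancreas supplying their ducts contained; these mice were ones with the Pdx1-Cre driver and without a Trp53 allele on their labels. The 7 normal lines came from ducts of wild-type pancreas of normal histology. All mice had a C57B6/J background, and all lines grew in 1 medium that held EGF, FGF-10, gastrin, noggin, R-spondin, B27, N-acetylcysteine, nicotinamide and A83-01, an inhibitor of TGF-beta receptors. Lines are called by group and number, as labelled. Female lines numbered 3 in tumor, 3 in PanIN and 5 in normal, and male lines 3, 3 and 2. PanIN 1 to 3 were female and PanIN 4 to 6 male. Nothing in the labels tells if some lines came from 1 animal or from littermates, and the p-values therefore reflect only how these lines varied.

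A ribosome starts in the nucleolus, where RNA polymerase I transcribes a long precursor of the ribosomal RNAs. Small nucleolar ribonucleoproteins (snoRNPs) modify that precursor, and a large particle, the small subunit processome, folds and cuts it. Further factors then build the 40S and 60S subunits. Cells that grow and divide need many ribosomes, and the genes of this pathway include textbook targets of the transcription factor Myc.

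Values are TPM, an abundance per transcript length scaled to the same total in every line, so levels of different genes can be compared but the number of reads behind a value is unknown. All 12 duct markers (keratins, Epcam, Cdh1, Sox9 and others) reached 1 TPM in at least 6 lines. So did 1 of 12 acinar, 0 of 8 endocrine, 1 of 10 fibroblast, 2 of 8 immune and 0 of 5 endothelial markers. The immune markers summed to 1.49 to 3.94 TPM in tumor, 2.75 to 3.65 in PanIN and 4.41 to 8.28 in normal lines, and the acinar markers to at most 2.61 TPM in any line. The duct markers summed to 7515 to 9422 TPM in tumor lines, 8077 to 12542 in PanIN lines and 10454 to 15520 in normal lines. For a set of 11 expressed rows, among them Cytb, Cox2, Atpase6 and mt-Nd4, the authors' deposited table gives no comparison. These rows took 16.3% of all TPM in tumor 5, 18.2% in tumor 8, 21.1% in tumor 9, 22.3% in tumor 7 and 22.65% in PanIN 6. In the remaining lines they took between 23.3% and 28.6%. In bulk RNA, a change in the share of cells of a type and a change in RNA per cell cannot be told apart.

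In tumor lines the ribosome biogenesis genes were, as a group, moderately higher than in normal lines. Of the 42, 17 rose, 0 fell and 25 did not pass the test (limma on log2(TPM + 1), Benjamini-Hochberg adjusted p below 0.05 over 12500 tested genes). Among all tested genes 17.8% rose and 14.4% fell. The median log2 change of the 42 was 0.32 (range -0.07 to 0.66), beside 0.04 over all tested genes, and 39 of the 42 were positive. The changes that passed lay between 1.24-fold for Npm1 and 1.58-fold for Mrto4. No gene of the 42 had every tumor line above every normal line, a separation seen in 2.90% of all tested genes. The authors' deposited table called 22 of the 42 higher in tumor lines, with 16.2% of all genes called higher there, and these included all 17. The further 5 were Polr1b, Dkc1, Rrp9, Bop1 and Nop2.

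**Figure D1:**
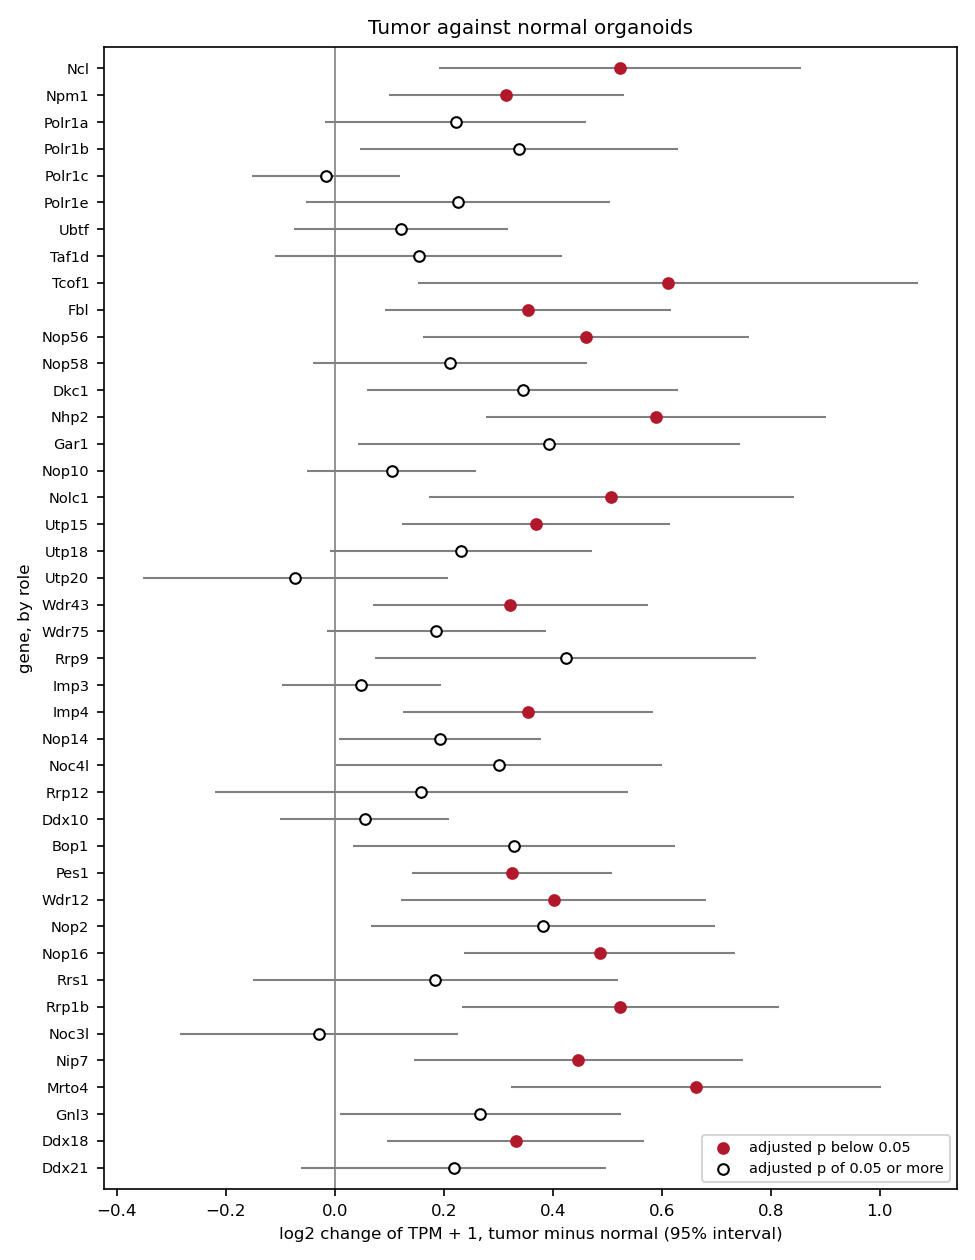
Log2 change of TPM + 1 of each of the 42 genes, tumor minus normal, with its 95% interval from limma (6 tumor and 7 normal lines), ordered by role. The 17 filled points, with an adjusted p below 0.05, all lie to the right of 0, and Polr1c, Utp20 and Noc3l lie just left of it.

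The genes Ncl and Npm1, of nucleolar proteins, both rose. Ncl encodes nucleolin, which binds the nascent precursor RNA. It stood at 43.9, 58.5 and 95.6 TPM in the lowest, median and highest tumor line, against 31.5, 41.1 and 57.9 TPM in the PanIN lines and 31.6, 46.0 and 52.4 TPM in the normal lines. Tumor 5 was the highest of all 19 lines, and the lowest tumor line, tumor 4, lay below 4 of the 7 normal lines. Ncl was 1.44-fold higher in tumor than in normal lines (log2 change 0.52, SE 0.16, adjusted p = 0.0184, limma). Npm1, the nucleolar chaperone nucleophosmin, had the highest TPM of the 42 genes, at 2366 ± 311 in tumor, 1872 ± 258 in PanIN and 1902 ± 247 in normal lines (SD, n = 6, 6 and 7, as for all values below). It was 1.24-fold higher in tumor than in normal lines (log2 change 0.31, SE 0.10, adjusted p = 0.0267, limma).

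Of the 7 RNA polymerase I subunits and factors, 1 (14.3%) rose, Tcof1, beside 17.8% of all tested genes. The median log2 change of the 7 was 0.22, and 6 of the 7 changes were positive. Tcof1 encodes treacle, a nucleolar phosphoprotein that binds the polymerase and its activator. It stood at 10.9, 20.1 and 29.8 TPM in the lowest, median and highest tumor line, against 9.42, 12.03 and 22.8 TPM in PanIN and 7.92, 13.8 and 17.0 TPM in normal lines. Tumor 8 was the highest line, tumor 4 lay within the normal range, and PanIN 6 lay above every normal line. The change was 1.53-fold between tumor and normal lines (log2 change 0.61, SE 0.22, adjusted p = 0.0401, limma). The catalytic subunit Polr1a averaged 26.5 ± 5.63, 21.0 ± 3.31 and 22.3 ± 2.06 TPM in tumor, PanIN and normal lines. Polr1b, the second large subunit, averaged 23.3 ± 6.10, 17.98 ± 3.84 and 17.8 ± 1.36 TPM in the same order of groups. Neither passed the test against normal lines. Polr1e, a smaller subunit, averaged 12.5 ± 3.20 TPM in tumor, 10.1 ± 1.74 in PanIN and 10.3 ± 1.17 in normal lines. Ubtf, the factor that bends ribosomal DNA for transcription, averaged 68.2 ± 8.33 TPM in tumor, 54.9 ± 7.38 in PanIN and 62.6 ± 6.32 in normal lines. Taf1d, a subunit of the promoter selectivity factor, averaged 99.0 ± 17.1 TPM in tumor, 80.1 ± 11.4 in PanIN and 88.9 ± 16.1 in normal lines. Polr1c, a subunit that RNA polymerase I shares with RNA polymerase III, stood nearly level, at 97.7 ± 9.39 TPM in tumor, 96.6 ± 6.95 in PanIN and 98.6 ± 5.92 in normal lines. Its log2 change between tumor and normal lines was -0.02 with a 95% interval of -0.15 to 0.12.

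Some genes of the snoRNP proteins passed the test and others did not, and differences between them were not tested. Dkc1 and Gar1, which did not pass, had log2 changes of 0.34 and 0.39, beside 0.36 for Fbl, which did. Box C/D snoRNPs methylate ribosomal RNA at ribose sugars, and 2 of the 3 genes of their proteins here rose. Nop56, a scaffold protein, stood at 138, 201 and 261 TPM in the lowest, median and highest tumor line, against 122, 133 and 202 TPM in PanIN and 126, 141 and 157 TPM in normal lines. Tumor 5, 8 and 9 and PanIN 6 stood above all other lines, and tumor 4 and 7 lay within the normal range. Nop56 was 1.38-fold higher in tumor than in normal lines (log2 change 0.46, SE 0.14, adjusted p = 0.0205, limma). Fbl, the methyltransferase fibrillarin, averaged 125 ± 26.3 TPM in tumor, 97.7 ± 17.2 in PanIN and 96.3 ± 12.2 in normal lines, a 1.28-fold rise against normal lines (log2 change 0.36, SE 0.13, adjusted p = 0.0372, limma). Nop58, the other scaffold protein, averaged 152 ± 27.1 TPM in tumor, 117 ± 21.7 in PanIN and 130.2 ± 13.7 in normal lines and did not pass.

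Box H/ACA snoRNPs convert uridines of ribosomal RNA to pseudouridine. Of the 4 genes of their proteins, 1 (25.0%) rose, beside 17.8% of all tested genes. Nhp2, a core protein, stood at 111, 149 and 214 TPM in the lowest, median and highest tumor line, against 95.5, 112 and 158 TPM in PanIN and 78.6, 108 and 112 TPM in normal lines. Every tumor line except tumor 4 stood above every normal line. Nhp2 was 1.504-fold higher in tumor than in normal lines (log2 change 0.59, SE 0.15, adjusted p = 0.00714, limma). Dkc1, the pseudouridine synthase dyskerin, averaged 58.7 ± 13.4 TPM in tumor, 42.3 ± 9.43 in PanIN and 45.2 ± 4.18 in normal lines. Gar1, a core protein, had the lowest TPM of the 42 genes in all 3 groups, at 11.5 ± 2.86 in tumor, 8.50 ± 2.29 in PanIN and 8.48 ± 2.09 in normal lines. Nop10, the smallest core protein, averaged 190.1 ± 16.9 TPM in tumor, 193 ± 17.4 in PanIN and 177 ± 16.3 in normal lines. The genes of these other 3 core proteins did not pass against normal lines. Nolc1, a chaperone of both snoRNP classes in the nucleolus, did. It stood at 38.1, 56.8 and 80.2 TPM in the lowest, median and highest tumor line, against 32.5, 33.4 and 56.7 TPM in PanIN and 32.3, 40.8 and 45.6 TPM in normal lines. Every tumor line except tumor 4 again stood above every normal line, and the rise was 1.42-fold (log2 change 0.51, SE 0.16, adjusted p = 0.0223, limma).

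Of 12 genes of the small subunit processome and of 40S assembly, 3 (25.0%) rose, beside 17.8% of all tested genes. Imp4, part of the U3 snoRNP that guides the early cuts of the precursor, stood at 32.2, 40.6 and 51.9 TPM in the lowest, median and highest tumor line, against 28.8, 31.5 and 40.6 TPM in PanIN and 28.3, 31.1 and 36.9 TPM in normal lines. Tumor 5, 8 and 9 and PanIN 6 stood above every normal line, and tumor 3, 4 and 7 stood within the normal range. The rise of Imp4 was 1.28-fold (log2 change 0.35, SE 0.11, adjusted p = 0.0199, limma). Utp15 and Wdr43, both of the first subcomplex to join the precursor, also rose. Utp15 averaged 23.9 ± 4.71 TPM in tumor, 17.98 ± 3.51 in PanIN and 18.05 ± 1.75 in normal lines, 1.29-fold higher in tumor than in normal lines (log2 change 0.37, SE 0.12, adjusted p = 0.0232, limma). Wdr43 averaged 75.5 ± 12.8 TPM in tumor, 57.9 ± 9.21 in PanIN and 60.04 ± 9.22 in normal lines, 1.25-fold higher in tumor than in normal lines (log2 change 0.32, SE 0.12, adjusted p = 0.0472, limma). The call of Wdr43 held in 6 of the 19 fits that each left out a line, so it rested on a narrow margin.

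The other 9 genes of this role did not pass against normal lines. Wdr75, of the same early subcomplex, averaged 62.0 ± 9.87 TPM in tumor, 51.5 ± 6.43 in PanIN and 54.0 ± 4.33 in normal lines. Utp18, of a second subcomplex, averaged 37.7 ± 7.40 TPM in tumor, 29.9 ± 4.68 in PanIN and 31.6 ± 3.38 in normal lines. Rrp9, a protein specific to the U3 snoRNP, averaged 41.4 ± 14.1 TPM in tumor, 29.9 ± 6.56 in PanIN and 29.3 ± 2.97 in normal lines. Its tumor lines were spread the most widely of these 9 relative to their mean. Nop14 and Noc4l act as partners in 40S assembly. Nop14 averaged 26.4 ± 4.10 TPM in tumor, 21.4 ± 2.20 in PanIN and 22.9 ± 1.82 in normal lines. Noc4l averaged 29.4 ± 6.79 TPM in tumor, 22.0 ± 5.29 in PanIN and 23.4 ± 3.24 in normal lines. Rrp12, a late 40S factor, averaged 11.7 ± 3.69 TPM in tumor, 9.01 ± 2.82 in PanIN and 10.0 ± 1.77 in normal lines. In each of these 6 genes the tumor mean was the highest of the 3 groups, and the lines of tumor and normal groups overlapped. Utp20, a large scaffold protein, averaged 22.3 ± 3.92 TPM in tumor, 20.1 ± 4.42 in PanIN and 23.5 ± 3.88 in normal lines, and its highest line of all was normal 11. Ddx10, an RNA helicase, averaged 25.5 ± 1.72 TPM in tumor, 22.9 ± 2.57 in PanIN and 24.5 ± 2.02 in normal lines. Imp3, a partner of Imp4 in the U3 snoRNP, averaged 79.2 ± 5.57 TPM in tumor, 80.2 ± 7.82 in PanIN and 76.6 ± 6.39 in normal lines. Imp3 and Imp4 thus differed in whether they passed, with log2 changes of 0.05 (95% interval -0.10 to 0.20) and 0.35 (0.13 to 0.58), a difference that was not itself tested.

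Pes1, Bop1 and Wdr12 form the PeBoW complex, which matures the RNA of the 60S subunit, and 2 of the 3 rose. Pes1 stood at 61.0, 69.4 and 90.2 TPM in the lowest, median and highest tumor line, against 55.5, 58.6 and 71.2 TPM in PanIN and 52.6, 55.4 and 63.3 TPM in normal lines. Tumor 5, 8, 9 and 3 stood above every normal line, and tumor 4 and 7 did not. Pes1 was 1.25-fold higher in tumor than in normal lines (log2 change 0.32, SE 0.09, adjusted p = 0.0103, limma). Wdr12 averaged 21.6 ± 5.56 TPM in tumor, 16.7 ± 2.98 in PanIN and 15.8 ± 1.57 in normal lines, a 1.32-fold rise against normal lines (log2 change 0.40, SE 0.13, adjusted p = 0.0292, limma). Bop1 averaged 56.8 ± 14.8 TPM in tumor, 44.1 ± 9.71 in PanIN and 43.7 ± 2.08 in normal lines and did not pass.

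By count the 60S assembly factors held the most calls, 5 of 9 (55.6%), and the smallest p-values of the 42 genes. The share was higher in smaller roles, such as 66.7% of the box C/D genes and of the PeBoW genes. Among 46 other large subunit genes, described below, 15.2% rose, beside 17.8% of all tested genes. Nop16, a nucleolar 60S factor, stood at 35.8, 47.4 and 64.6 TPM in the lowest, median and highest tumor line, against 32.3, 36.5 and 44.5 TPM in PanIN and 32.5, 33.6 and 36.2 TPM in normal lines. All tumor lines but tumor 4 stood above the highest normal line, and the normal lines spanned under 4 TPM. Nop16 was 1.401-fold higher in tumor than in normal lines (log2 change 0.49, SE 0.12, adjusted p = 0.0058, limma). Mrto4 holds the place of the stalk protein P0 in the immature 60S subunit. It stood at 65.7, 89.6 and 151 TPM in the lowest, median and highest tumor line, against 58.9, 62.6 and 92.3 TPM in PanIN and 48.1, 58.4 and 70.8 TPM in normal lines. Tumor 4 was the only tumor line within the normal range, and tumor 5 stood highest. Mrto4 was 1.58-fold higher in tumor than in normal lines (log2 change 0.66, SE 0.16, adjusted p = 0.00582, limma). Rrp1b, a nucleolar protein of 60S processing, averaged 19.8 ± 4.89 TPM in tumor, 15.1 ± 3.09 in PanIN and 13.2 ± 1.68 in normal lines, a 1.44-fold rise (log2 change 0.52, SE 0.14, adjusted p = 0.00914, limma). Nip7 averaged 38.1 ± 10.5 TPM in tumor, 27.2 ± 4.09 in PanIN and 27.2 ± 4.65 in normal lines, a 1.36-fold rise (log2 change 0.45, SE 0.14, adjusted p = 0.0247, limma).

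The helicase gene Ddx18 rose as well, at 77.1 ± 16.1 TPM in tumor, 60.9 ± 9.89 in PanIN and 59.96 ± 2.91 in normal lines. The other 60S factors did not pass. Nop2, which methylates the large ribosomal RNA, averaged 68.4 ± 20.7 TPM in tumor, 50.5 ± 9.78 in PanIN and 50.4 ± 3.82 in normal lines. Gnl3, the GTPase nucleostemin, averaged 89.7 ± 15.7 TPM in tumor, 68.1 ± 12.4 in PanIN and 74.1 ± 10.5 in normal lines. Rrs1, which brings the 5S particle to the assembling subunit, averaged 34.2 ± 7.29 TPM in tumor, 26.4 ± 6.24 in PanIN and 30.0 ± 6.66 in normal lines. Noc3l, whose yeast counterpart pairs with that of Noc2l, was the gene of this role with no rise in its mean, at 17.2 ± 3.44 TPM in tumor, 14.9 ± 3.21 in PanIN and 17.3 ± 1.39 in normal lines. Ddx21 encodes a helicase that acts in both RNA polymerase I and RNA polymerase II transcription. It stood at 61.9, 77.1 and 101 TPM in the lowest, median and highest tumor line, against 46.5, 61.6 and 83.3 TPM in PanIN and 56.7, 64.1 and 85.9 TPM in normal lines. Normal 7 lay above 3 of the 6 tumor lines, and Ddx21 did not pass (log2 change 0.22, SE 0.13, adjusted p = 0.216, limma).

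**Figure D2:**
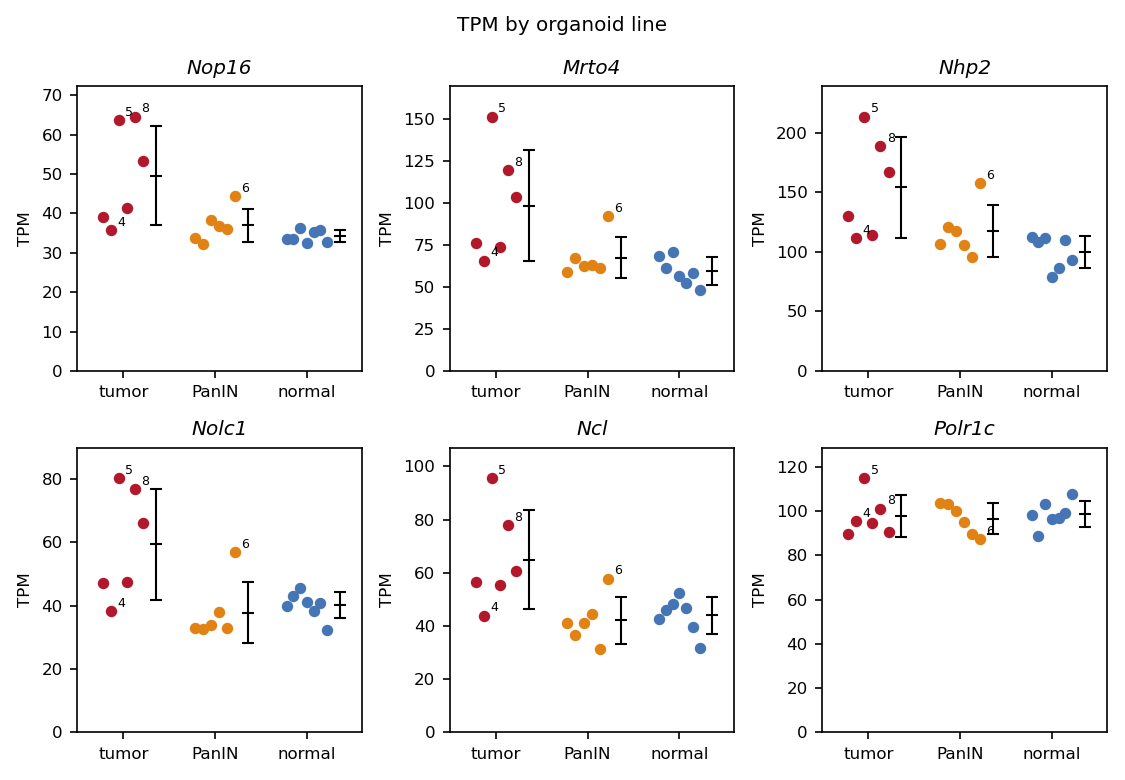
TPM of 6 of the genes in each line, on axes that start at 0, with the mean and SD of each group beside its points; tumor 4, 5 and 8 and PanIN 6 carry their numbers. In the panels of Nop16, Mrto4, Nhp2 and Nolc1 tumor 5 and 8 stand highest and tumor 4 lies at the bottom of the tumor lines. In the panel of Polr1c tumor 5 also stands highest, but tumor 8 lies below normal 7 and normal 13, and tumor 4 is not the lowest tumor line.

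The same 4 lines stood high for nearly all of the 42 genes. A line's score is the mean, over the 42 genes, of log2(TPM + 1) minus the gene's mean over the 19 lines. The scores of the tumor lines were 0.04 for tumor 3, -0.14 for tumor 4, 0.54 for tumor 5, 0.01 for tumor 7, 0.49 for tumor 8 and 0.36 for tumor 9. The PanIN lines had scores of -0.19, -0.19, -0.09, -0.19, -0.32 and 0.27 for PanIN 1 to 6, and the normal lines lay between -0.24 and 0.07. Tumor 5, 8 and 9 and PanIN 6 thus stood above the other 15 lines, and PanIN 5 stood lowest. Tumor 5 and tumor 8 had all 42 genes above their 19-line mean, and tumor 9 and PanIN 6 had 40, against 4 in tumor 4 and 1 in PanIN 5. Tumor 5 was the highest of all lines for 23 genes and tumor 8 for 14, and PanIN 5 was the lowest for 20. Within the tumor group tumor 4 was the lowest line for 34 genes. Tumor 5 stood above every normal line for 39 genes, tumor 8 for 37 and tumor 9 for 36, against 14 for tumor 3, 11 for tumor 7 and 0 for tumor 4.

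**Figure D3:**
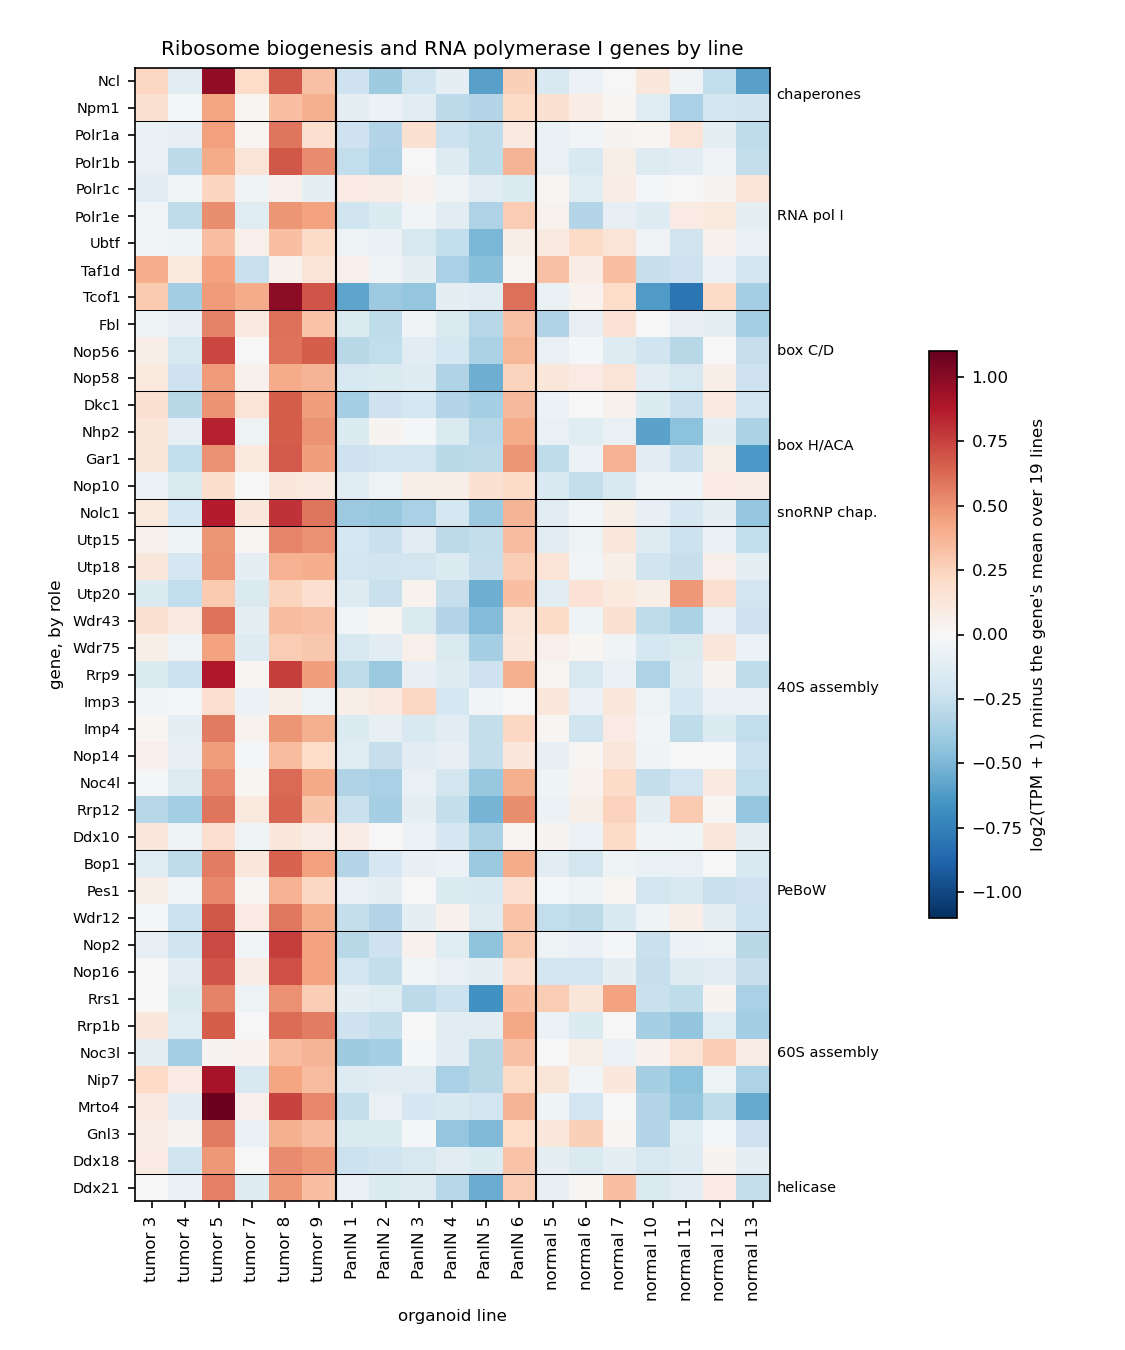
Each cell is log2(TPM + 1) of a gene in a line minus the gene's mean over the 19 lines; rows are the 42 genes by role and columns the tumor, PanIN and normal lines. The columns of tumor 5, tumor 8, tumor 9 and PanIN 6 are high across almost all rows, and the rows of Polr1c, Imp3, Nop10 and Ddx10 stay near 0.

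The count of called genes moved with single lines. Without tumor 5 or without tumor 8, 5 genes rose instead of 17, with 12.3% and 10.6% of all tested genes, and 7 rose without tumor 9, with 11.8% of all. The count was 11 without normal 11 or without normal 13, with 13.1% and 13.4% of all, and 27 without tumor 4, with 22.7% of all. Nhp2, Pes1, Nop16, Rrp1b and Mrto4 kept their calls whichever of the 19 lines was left out. The other 12 all lost theirs without tumor 5 and also without tumor 8, though no change of the 17 turned its sign in any fit. Without tumor 5 and tumor 8 together, an alternative chosen after seeing the data, 0 of the 42 were called by limma, with 5 at an unadjusted p below 0.05 and a median log2 change of 0.15. Of all 12500 tested genes 3540 then had an unadjusted p below 0.05 in either direction (limma), and 4.94% rose. A rescaling that left out the 11 rows without a comparison gave 11 called genes, with 11.4% of all tested genes called higher, and a median log2 change of 0.24. It also moved the share of higher calls among all calls from 55.1% to 37.4%. The 11 called genes of the 42 were all higher in tumor lines.

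**Figure D4:**
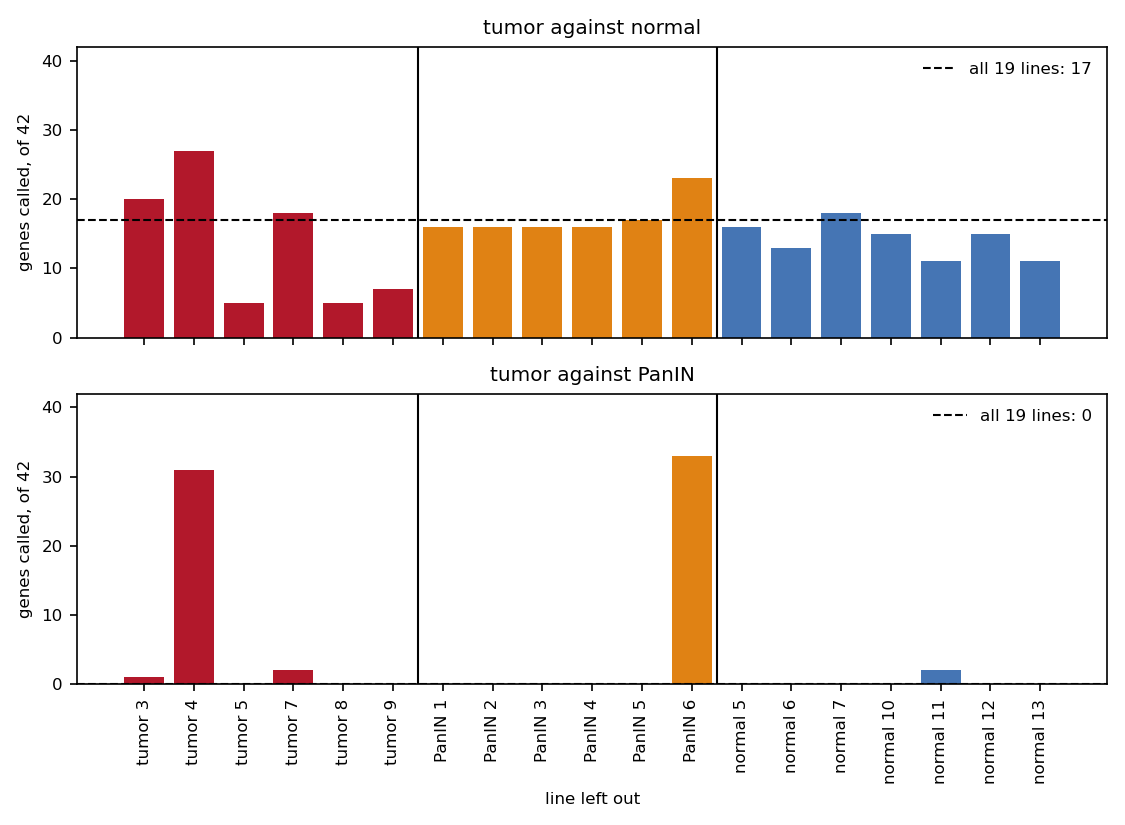
Number of the 42 genes with an adjusted p below 0.05 (limma) when each line in turn is left out, for tumor against normal lines above and tumor against PanIN lines below; dashed lines mark the counts with all 19 lines, 17 and 0. The upper count drops to 5 without tumor 5 or tumor 8 and grows to 27 without tumor 4, and the lower count grows to 31 without tumor 4 and 33 without PanIN 6.

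The library identifiers in the column names fall into 3 number series, which may or may not be batches. Within the first series, where tumor 4 is the sole tumor line, the median log2 change of the 42 genes between tumor and normal lines was -0.10, with 5 positive. Within the second series it was 0.51 (3 tumor and 2 normal lines, 41 positive), and within the third 0.34 (2 tumor and 2 normal lines, 39 positive). The pooled rise therefore did not hold within the first series, which has 1 tumor line. With the series as a batch term 14 of the 42 genes were called higher, with 15.8% of all tested genes. A fit with sex as a covariate also called 14 of the 42 higher, with 1832 of all 12500 tested genes.

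Genes of the cell cycle stood high in the same 4 lines. Of 40 cell cycle genes 27 rose in tumor against normal lines and 0 fell, with a median log2 change of 0.61. Their line score, computed as above, was 0.78 in tumor 5, 0.75 in tumor 8, 0.64 in tumor 9 and 0.46 in PanIN 6. It was 0.37 in tumor 7, 0.23 in tumor 3 and -0.16 in tumor 4, and between -1.08 and 0.16 in the normal lines. Tumor 7 and tumor 3 thus stood above every normal line for the cell cycle genes, while their ribosome biogenesis scores lay within the normal range. Mki67, the proliferation marker Ki-67, stood at 85.5, 125 and 153 TPM in the lowest, median and highest tumor line, against 50.5, 68.8 and 121 TPM in PanIN and 35.9, 88.3 and 121 TPM in normal lines (tumor against normal, log2 change 0.68, SE 0.23, adjusted p = 0.031, limma). The part of proliferation, of the duct marker sum and of the 11 rows without a comparison in the rise of the ribosome biogenesis genes was not tested.

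**Figure D5:**
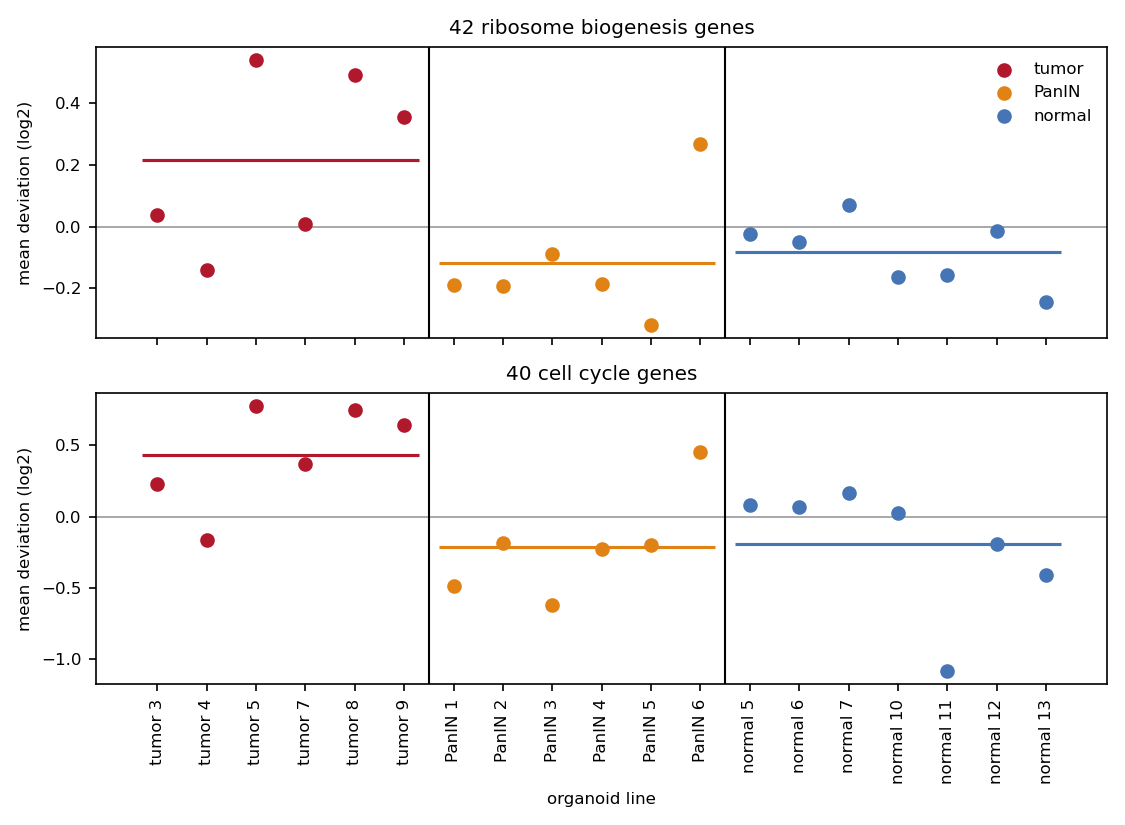
Score of each line, in log2 units, for the 42 ribosome biogenesis genes (top) and for 40 cell cycle genes (bottom); points are lines, short horizontal lines are group means. Tumor 5, 8 and 9 and PanIN 6 are the 4 highest lines in both panels, and tumor 4 lies below 0 in both.

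Myc, the transcription factor, stayed level in the mean, at 30.5 ± 8.71 TPM in tumor, 27.8 ± 3.70 in PanIN and 29.0 ± 6.64 in normal lines (tumor against normal, log2 change 0.06, SE 0.16, adjusted p = 0.811, limma). By line Myc stood at 44.37 TPM in tumor 5, 34.88 in tumor 9 and 32.19 in tumor 8, against 28.5, 21.61 and 21.43 in tumor 4, 3 and 7. PanIN 6 stood at 30.91 TPM and PanIN 5, the line with the lowest score, at 31.43. Normal 7, 12 and 5 stood at 37.25, 36.25 and 34.05 TPM and the other normal lines between 21.79 and 26.07. Whether Myc RNA follows the ribosome biogenesis score across lines was not tested. Of the 11 genes of the Myc network 1 rose and 3 fell in tumor against normal lines. Mlx, a dimer partner within the network, rose 1.38-fold (adjusted p = 0.00857, limma). Mycl1 and Mycn, the related Myc family genes, were 1.74-fold (adjusted p = 0.00092, limma) and 1.72-fold lower (adjusted p = 0.00681, limma), at low TPM in all groups. Mxd4, an antagonist of Myc at shared sites, was 1.67-fold lower (adjusted p = 0.0231, limma), at 20.02 ± 9.26 TPM in tumor, 34.5 ± 8.17 in PanIN and 31.4 ± 5.35 in normal lines.

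Promoters are shown for the called genes that carry the Myc recognition sequence, the E-box CACGTG, and for the 2 genes with the smallest p, which do not. The sequences are from RefSeq on build GRCm38.p6 and run from 250 bases before to 50 after the start of each gene, read 5′ to 3′ on its own strand; 36 of the 42 genes matched. The E-box is in capitals. The windows are Wdr43 at chr17:71615965-71616264, plus strand, Imp4 at chr1:34439579-34439878, plus strand, and Pes1 at chr11:3963725-3964024, plus strand. They are followed by Nop16 at chr13:54590025-54590324, minus strand, and Mrto4 at chr4:139352527-139352826, minus strand.
Wdr43: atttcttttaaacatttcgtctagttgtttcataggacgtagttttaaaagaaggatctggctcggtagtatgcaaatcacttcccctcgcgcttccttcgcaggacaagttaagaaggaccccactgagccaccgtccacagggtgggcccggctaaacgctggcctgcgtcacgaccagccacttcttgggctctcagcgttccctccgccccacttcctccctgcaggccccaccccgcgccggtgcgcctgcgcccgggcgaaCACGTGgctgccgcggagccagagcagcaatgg
Imp4: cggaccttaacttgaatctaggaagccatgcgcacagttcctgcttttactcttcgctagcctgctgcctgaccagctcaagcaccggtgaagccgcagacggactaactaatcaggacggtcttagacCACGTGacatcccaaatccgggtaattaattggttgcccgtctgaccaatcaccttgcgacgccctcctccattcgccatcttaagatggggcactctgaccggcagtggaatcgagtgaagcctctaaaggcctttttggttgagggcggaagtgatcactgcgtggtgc
Pes1: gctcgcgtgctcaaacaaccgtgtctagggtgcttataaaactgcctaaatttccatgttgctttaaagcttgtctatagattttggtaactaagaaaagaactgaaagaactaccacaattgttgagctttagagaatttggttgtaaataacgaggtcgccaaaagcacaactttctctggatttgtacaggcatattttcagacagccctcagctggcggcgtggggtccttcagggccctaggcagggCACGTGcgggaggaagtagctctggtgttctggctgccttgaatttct
Nop16: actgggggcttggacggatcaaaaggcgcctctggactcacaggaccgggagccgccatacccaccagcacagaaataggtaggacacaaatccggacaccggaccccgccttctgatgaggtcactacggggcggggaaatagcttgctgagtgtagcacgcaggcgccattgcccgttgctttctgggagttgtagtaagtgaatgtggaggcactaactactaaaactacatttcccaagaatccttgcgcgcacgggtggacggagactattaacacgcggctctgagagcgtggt
Mrto4: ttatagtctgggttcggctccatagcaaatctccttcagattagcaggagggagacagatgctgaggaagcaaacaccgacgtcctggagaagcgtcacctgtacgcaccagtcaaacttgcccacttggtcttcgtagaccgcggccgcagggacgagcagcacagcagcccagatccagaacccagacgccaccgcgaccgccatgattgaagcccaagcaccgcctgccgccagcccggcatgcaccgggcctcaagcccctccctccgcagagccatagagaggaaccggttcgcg
The E-box begins at base 268 of the Wdr43 window, base 130 of the Imp4 window and base 253 of the Pes1 window. Utp18, Utp20 and Nop2 hold it as well, and these 3 did not pass in tumor against normal lines. In all, 6 of the 36 matched promoters (16.7%) held it on either strand, beside 12.3% of 8228 promoters of tested genes and 8.09% of all 27025 promoters. The ETS core CCGGAA stood in 13 of 36 (36.1%), beside 32.7% of tested and 16.7% of all promoters. The GC box GGGCGG stood in 28 of 36 (77.8%), beside 71.1% and 38.2%; it is absent from the Pes1 and Mrto4 windows.

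Further genes of the pathway were read in tumor against normal lines beside the 17.8% of all tested genes that rose. Of 13 other RNA polymerase I genes 4 (30.8%) rose and 0 fell, with a median log2 change of 0.13. These were Polr1d, shared with RNA polymerase III, at 1.203-fold (adjusted p = 0.00283, limma), and Polr2h, Polr2e and Polr2f, shared by the nuclear RNA polymerases, at 1.35-fold (0.0125), 1.21-fold (0.0144) and 1.23-fold (0.0318). Of 43 other small subunit genes 5 (11.6%, below the share of all tested genes) rose and 0 fell, with a median of 0.20, led by Emg1, a methyltransferase of the small ribosomal RNA, at 1.54-fold (adjusted p = 0.000943, limma), and followed by Cirh1a, Ngdn and Ddx47 at 1.35-fold, 1.23-fold and 1.23-fold. Of 46 other large subunit genes 7 (15.2%, also below that share) rose and 0 fell, with a median of 0.14. The 4 with the smallest p were Sdad1 at 1.32-fold (adjusted p = 0.00135, limma), Znhit3 at 1.54-fold (0.00147), the helicase gene Ddx56 at 1.31-fold (0.00994) and Rsl1d1 at 1.26-fold (0.0125).

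Of 16 genes of snoRNP assembly and of RNase MRP, a nuclease of the precursor RNA, 6 (37.5%) rose and 0 fell. Pop1, Rpp30 and Pop5, protein subunits of RNase MRP, were 1.72-fold, 1.47-fold and 1.39-fold higher (adjusted p = 0.00731, 0.00763 and 0.0036, limma), and Ruvbl1, an ATPase of snoRNP assembly, 1.33-fold (0.0122). Of 16 exosome and nuclease genes 8 rose and 1 fell. The exosome subunit genes Exosc2, Exosc7, Exosc3 and Exosc1 were 1.48-fold, 1.31-fold, 1.28-fold and 1.32-fold higher, with adjusted p of 0.00807, 0.00843, 0.0128 and 0.0141 (limma). Mphosph6, an exosome cofactor, fell in tumor against normal lines and was also 1.33-fold lower in PanIN than in normal lines (adjusted p = 0.0395, limma). Of 77 cytosolic ribosomal protein genes 35 (45.5%) rose and 0 fell with a median of 0.17, which is a smaller size of change than the 0.32 of the 42 genes, though this difference was not tested. Rpl14, Rps13, Rpsa and Rpl27a had the smallest p and stood 1.30-fold, 1.23-fold, 1.27-fold and 1.22-fold higher (adjusted p = 0.00259, 0.00347, 0.00366 and 0.00391, limma). Ribosomal protein genes have many near-identical pseudogenes that can share reads, so their values are uncertain.

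The RNAs that these proteins bind could be read only in part. Of 109 rows named as snoRNAs or small Cajal body RNAs, 69 were listed at 0 in every line, among them 58 of 65 box C/D rows, and 28 were tested. Scarna13 fell, 1.24-fold (adjusted p = 0.0174, limma), and no other of the 28 passed in tumor against normal lines. Rmrp, the RNA of RNase MRP, averaged 34122 ± 3266 TPM in tumor, 29817 ± 3161 in PanIN and 34680 ± 7263 in normal lines and passed in no comparison. Ribosomal RNA itself was not analysed here, and the libraries had been depleted of it. Ncl, Nop56, Nop58, Taf1d, Gnl3, Wdr43 and Dkc1 host 27 annotated snoRNAs within their bounds, and Ncl, Nop56 and Wdr43 are among the 17 that rose. Whether reads of hosted snoRNAs, or of the protein-coding genes that overlap 11 of the 42 genes on the opposite strand (Polr1e, Taf1d, Nop56, Dkc1, Nhp2, Rrp9, Bop1, Pes1, Wdr12, Rrp1b and Gnl3), entered these values is not known, since no source says how strand was used in counting. Mrto4 has 2 annotated pseudogene copies, and Npm1 is known for processed pseudogenes, so reads may have been shared and their values are uncertain.

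Between tumor and PanIN lines, which differ in tissue of origin and in the Trp53 allele, 0 of the 42 genes passed the limma test, and 34 had an unadjusted p below 0.05, all of them higher in tumor lines. Among all 12500 tested genes 0.392% rose and 1.21% fell, and 3713 had an unadjusted p below 0.05 in either direction (limma). The median log2 change of the 42 was 0.34 beside 0.06 over all tested genes, and 40 of the 42 were positive. Nolc1 and Ncl had the smallest p, with log2 changes of 0.61 (SE 0.17, adjusted p = 0.0601, limma) and 0.59 (SE 0.17, adjusted p = 0.0617, limma). Their lowest, median and highest lines in each group are given above. For Nolc1, PanIN 6 stood at the tumor median and the other 5 PanIN lines below every tumor line, and for Ncl, PanIN 6 stood above 3 of the 6 tumor lines. The authors' deposited table called 11 of the 42 higher in tumor than in PanIN lines, with 5.10% of all genes called higher there. They were Ncl, Npm1, Ubtf, Nop56, Nop58, Dkc1, Nolc1, Utp15, Nop14, Nop16 and Mrto4. No gene of the 42 had every tumor line above every PanIN line, as 0.832% of all tested genes did.

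The count of called genes in this comparison moved most with 2 lines. Without PanIN 6, 33 of the 42 genes rose and 15.9% of all tested genes did, and without tumor 4, 31 rose, with 13.3% of all. The count was 2 without normal 11, with 509 of all 12500 tested genes called higher. It was also 2 without tumor 7, with 140 of all, and 1 without tumor 3, with 116 of all. It was 0 without any other line. Without tumor 5 or without tumor 8, 22 and 21 of the 42 had an unadjusted p below 0.05, with 2789 and 2617 of all tested genes (limma). Without both together, a fit chosen after seeing the data, 3 of the 42 and 1353 of all tested genes did (limma). The median log2 change of the 42 was then 0.185. Without PanIN 6 the log2 change was 0.73 for Nolc1, 0.69 for Ncl and 0.56 for Dkc1. The 9 genes that did not pass even then were Polr1c, Polr1e, Taf1d, Nop10, Utp20, Imp3, Rrp12, Ddx10 and Noc3l. Within the 3 identifier series the median log2 change was 0.03, 0.57 and 0.23, with 25, 42 and 39 of 42 positive. The cell cycle genes had a median log2 change of 0.63 between tumor and PanIN lines, and 0 of 40 passed the limma test while all 40 had an unadjusted p below 0.05. Of the further pathway lists, Ngdn (1.30-fold, adjusted p = 0.0495, limma), Sdad1 (1.28-fold, 0.0376), Znhit3 (1.58-fold, 0.0129) and Rpp30 (1.51-fold, 0.0494) rose.

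Between PanIN and normal lines the ribosome biogenesis genes showed no change that could be called. Of the 42 genes 0 passed the limma test, 0 had an unadjusted p below 0.05, and the authors' deposited table called 0 of them and 10.5% of all genes. Among all 12500 tested genes 6.78% were called, 3.10% higher and 3.68% lower, and 2377 had an unadjusted p below 0.05 (limma). The median log2 change of the 42 was -0.03, the same as over all tested genes, and 15 of the 42 were positive. The 95% intervals ran from -0.54 at the lowest bound, for Rrp12, to 0.54 at the highest, for Nhp2, and those of most genes were narrower, such as -0.17 to 0.10 for Polr1c and -0.08 to 0.21 for Imp3. Ubtf and Noc3l had the smallest p. Ubtf stood at 43.1, 56.2 and 64.2 TPM in the lowest, median and highest PanIN line, against 52.5, 63.3 and 71.0 TPM in normal lines (log2 change -0.19, SE 0.09, adjusted p = 0.283, limma). Noc3l stood at 12.2, 14.0 and 20.7 TPM in the lowest, median and highest PanIN line, against 15.6, 17.1 and 19.9 TPM in normal lines (log2 change -0.22, SE 0.12, adjusted p = 0.339, limma). For both genes PanIN 6 was the highest PanIN line, within the normal range for Ubtf and above it for Noc3l. PanIN 6 stood above every normal line for 30 of the 42 genes and above every other PanIN line for 37. Without PanIN 6 the median log2 change was -0.11, with 0 of 42 called by limma and 4 at an unadjusted p below 0.05. Of all 12500 tested genes 2261 then had an unadjusted p below 0.05 (limma). Within the 3 series the median log2 change of the 42 was -0.17, -0.02 and 0.10. Rpl30 was the 1 ribosomal protein gene that rose, 1.14-fold (adjusted p = 0.0397, limma), and Mycl1 was 1.80-fold lower in PanIN than in normal lines (adjusted p = 0.0014, limma). Tumor against normal and PanIN against normal share the normal lines, and tumor against PanIN shares lines with both, so the 3 comparisons are not independent.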

How the data were processed

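The authors deposited 1 table with TPM for each of 19 lines. The tools and build named, per the submitters' processing notes, were DESeq2 1.4.1, DESeq, Bowtie 1.1.0, RSEM 1.2.11, FastQC and mm9. The annotation, and whether counting used strand, are not stated. Per the labels' protocols, libraries were strand-marking after removal of ribosomal RNA. The deposited table also holds the authors' log2 fold changes, p-values and test scores per gene, per the file headers. TPM keeps no depth, so counting error is unknown. Here log2(TPM + 1) was fitted with limma 3.58.1 in R 4.3.3, 1 mean per group over 19 lines, eBayes with trend, two-sided, adjusted by Benjamini-Hochberg over 12500 genes with at least 1 TPM in at least 6 lines. A gene was called at an adjusted p below 0.05. Folds are on that log2 scale, which understates changes of low genes. Fits with other scalings, pseudocounts (0.1 and 5), filters, covariates and lines were run. In 5 simulated sets, tumor against normal recovered 62.6% of genes changed by 0.5 log2 units and 93.2% changed by 1. The 43 genes, the further lists and the promoter motifs were chosen with earlier results of these data known. By rule, every gene was named with its levels, folds were given for up to 4 called genes per role or list, and values by line for the smallest p. Overlaps, snoRNAs and pseudogenes came from GENCODE M21 (GRCm38), and promoters from RefSeq (GRCm38.p6). Not all alleles of these mice are reported here.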

Additional observations from a re-analysis of the deposited data

Results flagged for a closer look

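PanIN 6 stood far above the other 5 PanIN lines for 16 of the 42 genes, by Dixon's test at its 95% critical value. The gap was widest relative to the group's range for Gar1, at 13.15 TPM in PanIN 6 against 7.23 to 7.83 TPM in the other PanIN lines, and for Utp18, at 39.37 against 27.16 to 29.14 TPM. Ddx18 stood at 80.79 against 54.74 to 59.14 TPM, Dkc1 at 61.16 against 36.62 to 41.46 TPM, and Utp15 at 24.99 against 15.80 to 17.75 TPM. In the snoRNP genes Nolc1 and Nop56, PanIN 6 had 56.74 and 201.64 TPM. In Tcof1, of RNA polymerase I transcription, it had 22.75 TPM. Among small subunit genes it had 42.58 TPM for Rrp9, 40.58 for Imp4, 32.17 for Noc4l and 14.51 for Rrp12. Among large subunit genes it had 62.36 TPM for Bop1, 21.07 for Rrp1b, 34.61 for Nip7 and 92.29 for Mrto4.

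One normal line also stood apart, normal 12 for Ddx18, at 65.97 TPM against 57.25 to 60.31 TPM in the other 6 normal lines. In all, 17 of 132 sets of lines stood apart in this way, where chance gives about 1 in 20; the sets were the TPM of each of the 42 genes, the ribosome biogenesis score and the cell cycle score, each in the 3 groups. The genes share lines, so these are not independent.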

How the results depend on the processing

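Among the 17 genes called in tumor against normal lines, no change turned its sign under any alternative. The count of 17 was 11 after rescaling without the rows that have no comparison, and 5 to 27 when each line in turn was left out. Chosen after seeing the data, leaving out tumor 5 and tumor 8 together gave 0, and leaving out tumor 4 with median-of-ratios rescaling gave 26. In tumor against PanIN lines the count of 0 ranged from 0 to 33 with a line left out. Without PanIN 6 it was 25 under median-of-ratios rescaling and 27 after rescaling without those rows, and without tumor 4 it was 20 and 15; these 4 were also chosen after seeing the data.

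Over all tested genes, the 4024 called in tumor against normal lines ranged from 2657 to 4860 with a line left out and were 1373 without tumor 5 and tumor 8. The 847 called in PanIN against normal lines were 535 with a minimum of 5 TPM and 496 to 893 with a line left out. The 200 called in tumor against PanIN lines were 333 under quantile normalization, 303 under median-of-ratios rescaling, 93 with no filter, 130.0 with a minimum of 5 TPM, 97 with only these groups in the fit, 65 with the identifier series as a batch term, 53 to 2836 with a line left out and 29 without tumor 5 and tumor 8. The 4 rescaled fits above gave 2514, 2333, 2159 and 1901.

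Correlations between the deviations of same-numbered lines ran from -0.31 to 0.25, over 2 or 3 shared numbers in each comparison. Shared numbers are so few that these values cannot tell if the numbers pair the lines. With the replicate number as a block, fitted to the few lines that share numbers, 0 of the 42 genes were called in each comparison, and 289, 15 and 0 of all genes in PanIN against normal, tumor against normal and tumor against PanIN lines. TPM carries no depth, so the precision of low genes is unknown.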
